A study of Mus musculus with 18 samples.

Results

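The glutamine tRNAs of mouse hippocampus were described here in 18 libraries of Hydro-tRNA-seq, a method that hydrolyses tRNA into short pieces before sequencing so that the modified and folded molecule can be read. All rows of tRNA-Gln-CTG and tRNA-Gln-TTG (Gln-CTG and Gln-TTG below) in the deposited table were taken, without regard to their values. They came to 85 rows of 3574 in all, or of 1857 rows for mature and precursor nuclear-encoded tRNAs. The anticodon CTG held 50 rows, which covered 5 mature isodecoders and 10 precursor loci. The anticodon TTG held 35 rows, which covered 5 mature isodecoders and 5 precursor loci. Isodecoders are tRNAs that share an anticodon but differ elsewhere in the sequence, and a locus is 1 gene copy, so that Gln-CTG-2-1 and Gln-CTG-2-4 are gene copies of the isodecoder Gln-CTG-2.

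The mice were male 5xFAD animals, a transgenic model of Alzheimer's disease whose transgenes are driven by the neuronal Thy1 promoter, or wild-type (WT) animals of B6SJL background. At 6 months of age every mouse received injections of rAAV2/8 into the CA1 and dentate gyrus of both hippocampi, and tissue was taken 4 weeks later. The virus carried GFP under the RSV promoter and, under the H1 promoter, either a control hairpin (shCT) or a hairpin against RTP801 (shRTP801), a stress-induced protein encoded by Ddit4. Of the WT libraries 5 were shCT and 4 shRTP801, and of the 5xFAD libraries 3 were shCT and 6 shRTP801, each from a different mouse. The question put by the design was whether genotype and silencing of RTP801 changed the pool of tRNAs. RTP801 mRNA lies outside the tRNA size window and was not measured in these libraries, so the extent of silencing was not checked here.

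Glutamine tRNAs are charged by glutaminyl-tRNA synthetase (Qars1) and read the codons CAG and CAA. Gln-CTG pairs with CAG, the more frequent glutamine codon of mammalian mRNAs. Gln-TTG reads CAA and can also read CAG, and in the mature cytosolic tRNA its wobble uridine carries a modification that depends on Elongator and on a thiolation pathway. Both are transcribed by RNA polymerase III as precursors with a 5′ leader and a 3′ trailer, which RNase P and RNase Z remove before CCA is added. Mouse glutamine tRNA genes have no intron, so tRNA splicing is not a step in their maturation.

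Libraries held 9850676 to 20292469 reads of mature tRNA (median 14503286.5) and 47875 to 318628 reads of precursor tRNA (median 67939). Gln-CTG held 49208 to 2218005 mature reads per library and 508 to 3552 precursor reads, and Gln-TTG held 21055 to 216818 mature and 223 to 1274 precursor reads. In 3 libraries, those of WT shCT mouse 5, WT shRTP801 mouse 4 and 5xFAD shRTP801 mouse 7, mitochondrial tRNAs held 0.00314%, 0.427% and 0.0317% of all reads, against 6.85 to 26.6% in the other 15. Mature nuclear-encoded tRNA made up 98.7%, 96.1% and 97.4% of reads in those 3 libraries. They are called the mt-poor libraries below, none of them belonged to the 5xFAD shCT group, and many, though not all, results are given with and without them. As a check of the tissue, Arg-TCT-4, an isodecoder of the central nervous system, had 61 to 6619 reads in every library, while the brain snoRNAs Snord115 and Snord116 had 0 reads in the mt-poor libraries. In bulk tissue, fewer cells of a type and less tRNA per cell cannot be told apart.

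Within Gln-CTG, 3 isodecoders held nearly all mature reads. Their mean shares of mature tRNA reads over the 18 libraries were 2.20% for Gln-CTG-2, 2.01% for Gln-CTG-3 and 1.82% for Gln-CTG-1, against 0.124% for Gln-CTG-4 and 0.0477% for Gln-CTG-5. Much of this was the same reads listed at several isodecoders. Reads are counted as 5′-end or 3′-end reads where they reach that end of the mature tRNA, as whole reads where they reach both ends, and as internal reads where they reach neither. Gln-CTG-2 had 668680 5′-end reads over the 18 libraries and Gln-CTG-3 had 668682, and these rows were identical in 16 libraries. Their internal reads, 4405743 and 4405741, were identical in 15 libraries. Gln-CTG-1 followed closely with 645065 5′-end and 4064632 internal reads. The 3′-end reads differed more between these 3 isodecoders, with 589539 for Gln-CTG-2, 133215 for Gln-CTG-3, 164421 for Gln-CTG-4, 11477 for Gln-CTG-5 and 10617 for Gln-CTG-1. Reads can be shared here as well, and how many were unique to an isodecoder was not measured. Gln-CTG-1, whose total lay close to those of Gln-CTG-2 and Gln-CTG-3, thus had few 3′-end reads, as did Gln-CTG-5, in sums pooled over the libraries. Reads spanning the whole molecule numbered 18066 for Gln-CTG-2, 1536 for Gln-CTG-3, 362 for Gln-CTG-4, 312 for Gln-CTG-1 and 7 for Gln-CTG-5.

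Gln-TTG was built in the same way around a pair of isodecoders. Gln-TTG-1 and Gln-TTG-3 each had a mean share of 0.203%, and their 177569 3′-end reads were identical in all 18 libraries. Gln-TTG-2 followed with 0.0977% and Gln-TTG-5 with 0.0780%. The reads of these latter species were mostly internal, 214064 for Gln-TTG-2 and 177872 for Gln-TTG-5, and their 3′-end reads numbered 7657 and 308. Gln-TTG-4 was close to absent, with a mean share of 0.000165%, 352 5′-end and 90 internal reads in all, no 3′-end or whole read, and no precursor row. When each read type of a family was represented by its largest isodecoder, so that shared reads counted once, 34.1 to 60.9% of the Gln-CTG sum and 32.1 to 43.8% of the Gln-TTG sum remained, against 60.6 to 84.8% over all mature tRNAs.

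**Figure D1:**
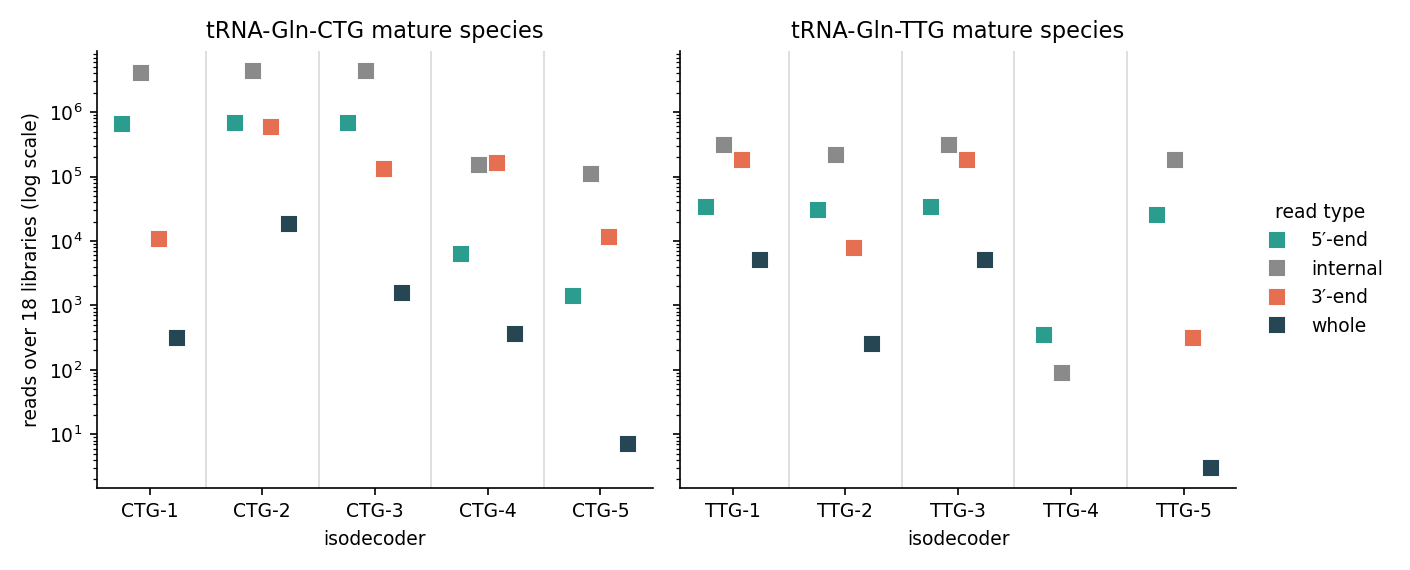
Mature reads of each glutamine isodecoder summed over the 18 libraries, by read type, on a log axis. 5′-end and internal reads of Gln-CTG-1, Gln-CTG-2 and Gln-CTG-3 lie at nearly the same height, while their 3′-end reads range from 10617 to 589539, and Gln-TTG-1 and Gln-TTG-3 coincide at 177569 3′-end reads.

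Summed over its isodecoders, tRNA-Gln-CTG was the sixth most abundant of 49 mature families and the second most variable over the 18 libraries, with a standard deviation of 1.77 on the log2 scale. These sums list shared reads at several isodecoders. With shared reads counted once it had a mean share of 3.18% and was the seventh of all 50 mature families, and Gln-TTG had 0.290%. As summed, the Gln-CTG share of mature reads was 6.67%, 0.251%, 8.24%, 3.31% and 8.32% in WT shCT mice 3, 5, 6, 11 and 15. It was 0.448%, 8.24%, 5.40% and 5.60% in WT shRTP801 mice 4, 10, 17 and 21, and 5.97%, 11.6% and 2.74% in 5xFAD shCT mice 1, 16 and 18. In the 6 5xFAD shRTP801 mice it ran from 0.334% to 13.5% with a median of 7.41%. The lowest value in each group that held a mt-poor library was that library's, and the other 15 libraries spanned 2.74 to 13.5%. Without the mt-poor libraries the log2 standard deviation of Gln-CTG was 0.647, and its rank among the 49 families was 17.

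The means of the Gln-CTG share were 5.36% ± 3.50 (SD, n = 5) with shCT and 4.92% ± 3.25 (n = 4) with shRTP801 in WT mice, and 6.77% ± 4.47 (n = 3) with shCT and 7.50% ± 4.80 (n = 6) with shRTP801 in 5xFAD mice. All pairs of groups overlapped. The exact two-sided permutation p was 0.643 for 5xFAD shCT against WT shCT, 0.857 for 5xFAD shRTP801 against 5xFAD shCT, 0.810 for WT shRTP801 against WT shCT and 0.40 for 5xFAD shRTP801 against WT shRTP801. These comparisons share groups, so they are not independent of each other. The smallest p such a test can give was 0.0357, 0.0238, 0.0159 and 0.00952 in the same order. Without the mt-poor libraries the means were 6.63% ± 2.35 (n = 4), 6.41% ± 1.59 (n = 3), 6.77% ± 4.47 (n = 3) and 8.93% ± 3.65 (n = 5), and the exact permutation p ranged from 0.357 to 1.0. With shared reads counted once the means over all libraries were 2.64% ± 1.72, 2.60% ± 1.71, 3.72% ± 2.67 and 3.74% ± 2.46 in the same order of groups, and the exact permutation p ranged from 0.505 to 1.0.

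tRNA-Gln-TTG was lower than Gln-CTG in every library and varied in a similar way. Its share of mature reads was 0.355%, 0.119%, 0.891%, 0.314% and 0.706% in the WT shCT mice, and 0.118%, 0.516%, 0.591% and 0.697% in the WT shRTP801 mice, in the same order of mice as above. It was 0.387%, 1.02% and 0.431% in the 5xFAD shCT mice and 0.122 to 1.08% in the 5xFAD shRTP801 mice, with a median of 0.875%. The mt-poor libraries were again the lowest of their groups. Group means were 0.477% ± 0.313, 0.480% ± 0.253, 0.613% ± 0.354 and 0.721% ± 0.407 (SD, n = 5, 4, 3 and 6), and the exact permutation p over the same 4 comparisons ranged from 0.333 to 0.984.

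**Figure D2:**
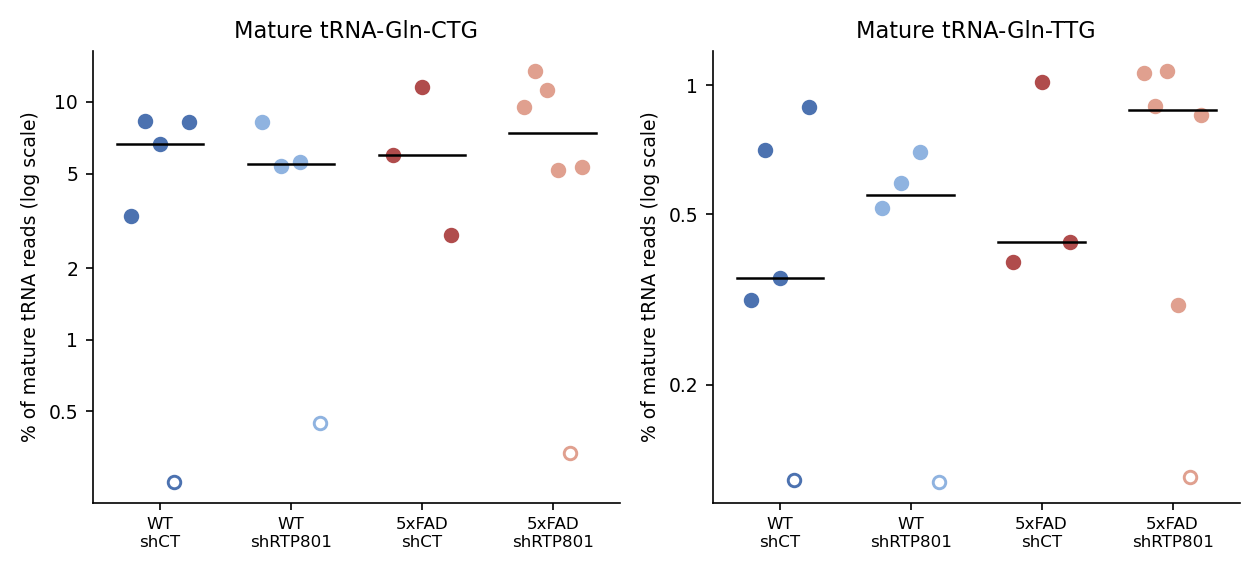
Share of mature tRNA reads held by Gln-CTG and Gln-TTG in each of the 18 mice, on a log axis, with a line at each group's median and open symbols for the 3 mt-poor libraries. The open symbols sit at 0.251 to 0.448% for Gln-CTG and 0.118 to 0.122% for Gln-TTG, under every other mouse, and the filled symbols of the 4 groups overlap.

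In the limma fit over all 49 mature families no glutamine family passed an adjusted p of 0.05, and 0% of the 49 families passed in any of the 4 comparisons. An unadjusted p under 0.05 was found for 4.08%, 2.04%, 12.2% and 0% of the families in the order above, with no glutamine family among them. edgeR on the recovered reads called no family, and DESeq2 called 1, not of glutamine, in WT shRTP801 against WT shCT. The log2 difference of Gln-CTG was 0.81 ± 1.30 (SE) between 5xFAD shCT and WT shCT, with an adjusted p of 0.739, and that of Gln-TTG was 0.53 ± 0.79, also with an adjusted p of 0.739. The 95% intervals of these differences were wide, from -1.94 to 3.56 for Gln-CTG and from -1.15 to 2.21 for Gln-TTG.

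By isodecoder, 9 of the 10 glutamine species passed the filter on low values, with Gln-TTG-4 left out. All 9 lay higher in 5xFAD shCT than in WT shCT, with a median log2 difference of 0.70, against 0.31 over the 186 species tested. The 9 are far from independent, because they list shared reads, and 0 of them and 0% of the 186 passed the adjusted threshold. None of the 9 had an unadjusted p under 0.05 in limma in any of the 4 comparisons, where 5.38%, 1.08%, 10.8% and 0.538% of the 186 species had one. Without the mt-poor libraries 5 were higher and 4 lower, and the median was 0.02. Between 5xFAD shRTP801 and 5xFAD shCT the median of the 9 was -0.22, the same as over all 186 species, and it was 0.45 without the mt-poor libraries, with 7 of the 9 higher. Gln-CTG-4 was the steadiest of the named Gln-CTG isodecoders, at 0.117 to 0.166% in the 15 other libraries.

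In the order of mice used above, Gln-CTG-2 held 2.34%, 0.153%, 2.88%, 1.19% and 2.94% of mature reads in WT shCT, 0.209%, 2.90%, 1.98% and 2.04% in WT shRTP801, 2.20%, 4.05% and 1.08% in 5xFAD shCT, and 0.181 to 4.59% with a median of 2.58% in 5xFAD shRTP801. Gln-CTG-3 held 2.16%, 0.0488%, 2.69%, 1.03% and 2.71%, then 0.114%, 2.70%, 1.74% and 1.78%, then 1.89%, 3.86% and 0.831%, and 0.0752 to 4.46% with a median of 2.41%. Gln-CTG-1 held 1.999%, 0.0216%, 2.51%, 0.835% and 2.49%, then 0.0587%, 2.41%, 1.49% and 1.57%, then 1.67%, 3.43% and 0.662%, and 0.0307 to 4.21% with a median of 2.23%. These 3 isodecoders moved together from mouse to mouse, as rows that share reads do, and in each group that held a mt-poor library that library was the lowest. Gln-CTG-4 held 0.118%, 0.0181%, 0.128%, 0.166% and 0.138%, then 0.0434%, 0.159%, 0.136% and 0.158%, then 0.156%, 0.163% and 0.129%, and 0.0304 to 0.154% with a median of 0.137%.

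Gln-TTG-1 held 0.132%, 0.0502%, 0.294%, 0.126% and 0.243% of mature reads in the WT shCT mice, 0.0499%, 0.182%, 0.212% and 0.255% in WT shRTP801, 0.147%, 0.329% and 0.172% in 5xFAD shCT, and 0.0516 to 0.361% with a median of 0.294% in 5xFAD shRTP801. Gln-TTG-3 held 0.132%, 0.0523%, 0.294%, 0.126% and 0.243%, then 0.0507%, 0.181%, 0.212% and 0.255%, then 0.146%, 0.329% and 0.171%, and 0.0530 to 0.362% with a median of 0.294%. The values of this pair were nearly the same in every mouse. Gln-TTG-2 held 0.0485%, 0.00971%, 0.169%, 0.0334% and 0.121%, then 0.0109%, 0.0865%, 0.0991% and 0.107%, then 0.0558%, 0.1997% and 0.0556%, and 0.0106 to 0.206% with a median of 0.157%. Gln-TTG-5 held 0.0425%, 0.00702%, 0.134%, 0.0289% and 0.0982%, then 0.00663%, 0.0657%, 0.0677% and 0.0798%, then 0.0380%, 0.162% and 0.0327%, and 0.00619 to 0.182% with a median of 0.131%. Here too the mt-poor libraries were the lowest of their groups, and the groups overlapped for all 4 Gln-TTG isodecoders.

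The position of the reads along the tRNA differed more clearly between libraries than between groups. Read types here describe pieces made by hydrolysis on the bench, not fragments present in the tissue. In the 15 libraries outside the mt-poor set, 65.5 to 88.2% of Gln-CTG reads were internal and 2.19 to 17.4% were 3′-end reads. In the mt-poor libraries of WT shCT mouse 5, WT shRTP801 mouse 4 and 5xFAD shRTP801 mouse 7, 31.2%, 53.0% and 40.8% were internal and 53.8%, 32.4% and 44.7% were 3′-end reads. Over all mature tRNAs, internal reads were 1.54%, 3.81% and 2.03% of mature reads in those libraries, against 10.2 to 26.9% in the others. The 3 libraries with the lowest Gln-CTG share were thus also those with the smallest internal part. The 3′-end reads of Gln-CTG-2 varied from 18826 to 55039 per library (median 32122), whereas its internal reads varied from 5185 to 642634 (median 206802.5).

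Gln-TTG showed the same division with a larger 3′-end part. Its internal reads were 42.3 to 79.7% of the family in the 15 libraries and 28.2%, 34.5% and 32.0% in the mt-poor ones, and its 3′-end reads were 14.1 to 46.1% and 44.8%, 41.7% and 43.4%. Whole-length reads were rare in both families. They made up 0.0353 to 0.403% of Gln-CTG in the 15 libraries and 1.09%, 1.74% and 1.55% in the mt-poor ones.

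**Figure D3:**
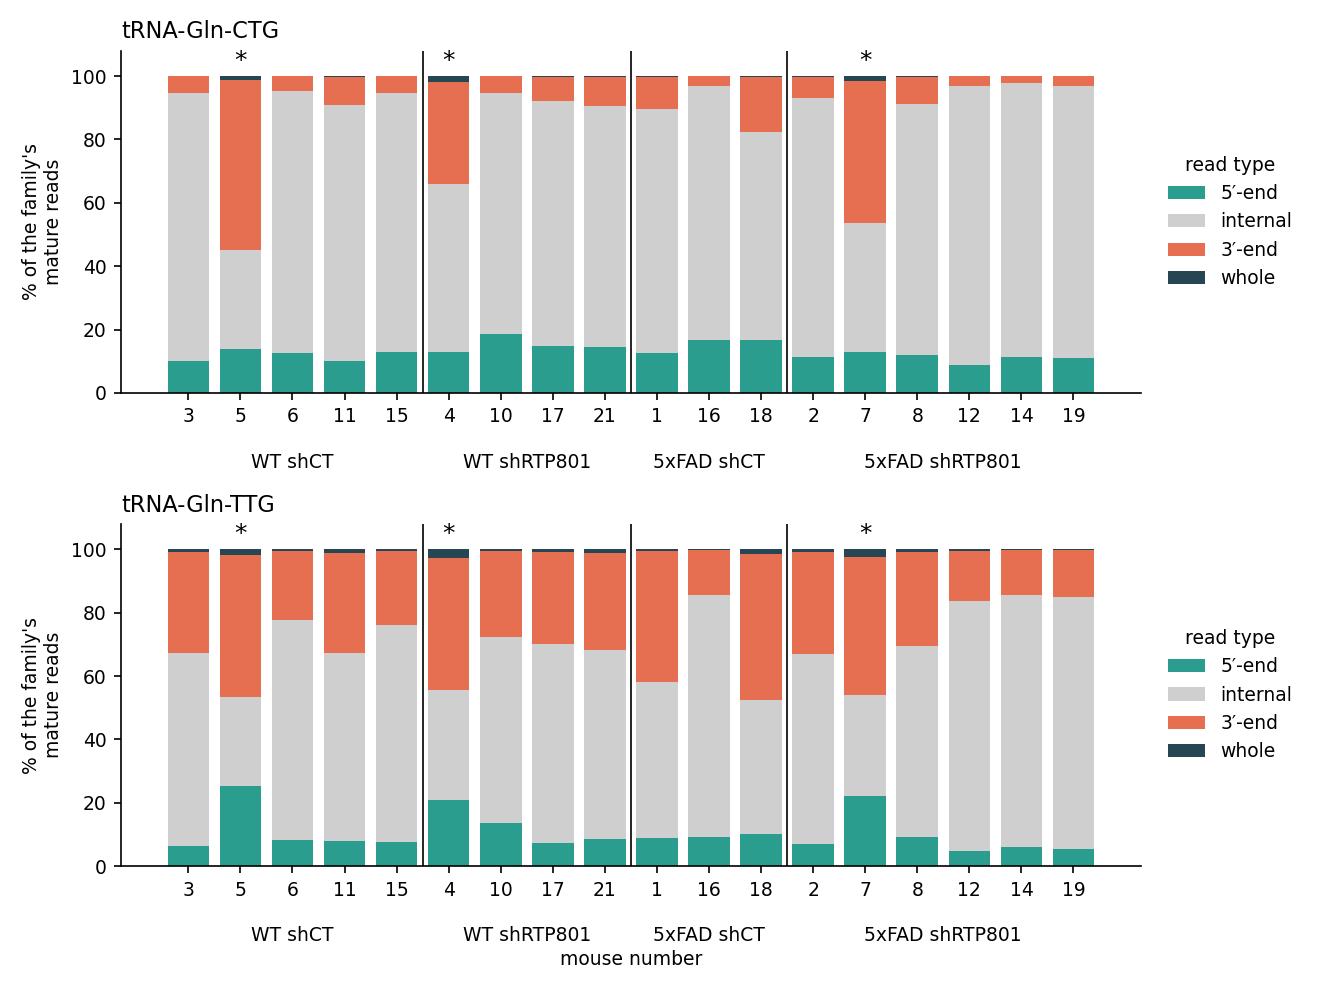
Read types of mature Gln-CTG and Gln-TTG in each mouse as a percentage of the family's reads, with stacked bars for 5′-end, internal, 3′-end and whole reads, and an asterisk at the 3 mt-poor libraries. Internal reads of Gln-CTG fill 65.5 to 88.2% of the bar in the 15 other libraries and 31.2 to 53.0% in the mt-poor ones.

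The 5′-end share of Gln-CTG was the measure on which genotype and hairpin combined most distinctly. It was 10.2%, 13.9%, 12.5%, 9.95% and 12.8% in WT shCT mice 3, 5, 6, 11 and 15, and 12.9%, 18.5%, 14.8% and 14.6% in WT shRTP801 mice 4, 10, 17 and 21. It was 12.7%, 16.6% and 16.7% in 5xFAD shCT mice 1, 16 and 18, and 8.67 to 12.9% with a median of 11.4% in the 6 5xFAD shRTP801 mice. The means were 11.9% ± 1.74 with shCT and 15.2% ± 2.38 with shRTP801 in WT (SD, n = 5 and 4), and 15.3% ± 2.29 with shCT and 11.3% ± 1.42 with shRTP801 in 5xFAD (n = 3 and 6). Thus the share was higher with shRTP801 in WT mice and lower with shRTP801 in 5xFAD mice, and the groups overlapped in each of the 4 comparisons over all libraries.

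The shRTP801 minus shCT difference was 3.28 percentage points in WT and -4.06 points in 5xFAD, so the 2 differences were -7.35 points apart. Relabelling the hairpins within each genotype gave an exact two-sided permutation p of 0.000567 over 10584 relabellings, unadjusted, and this was 1 of 12 glutamine family values tested in that way. Each value was also tested without the mt-poor libraries, and the 5′-end shares also with shared reads counted once. Such a p refers to no hairpin difference in either genotype, not to equal differences in both. In the limma fit over all 196 combinations of family and read type, the interaction of genotype and hairpin was -0.79 ± 0.20 (SE) on the log2 scale, with an unadjusted p of 0.00136 and an adjusted p of 0.133. It ranked second of the 196 by p. No read type passed the adjusted threshold in that interaction, and 12.2% had an unadjusted p under 0.05. The result therefore did not pass the correction over all families.

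Single comparisons of the 5′-end share of Gln-CTG gave an exact permutation p of 0.107 between 5xFAD shCT and WT shCT, 0.0476 between 5xFAD shRTP801 and 5xFAD shCT, 0.0317 between WT shRTP801 and WT shCT, and 0.0190 between 5xFAD shRTP801 and WT shRTP801. These are 4 of 96 such unadjusted tests on the glutamine rows. In limma the corresponding log2 differences were 0.36, -0.44, 0.35 and -0.43, with adjusted p values of 0.807, 0.690, 0.928 and 0.602, and 0% of the 196 features passed. At an unadjusted p under 0.05 in limma this share was among the 4.08%, 3.57%, 2.55% and 4.08% of features that passed.

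Without the mt-poor libraries the pattern was larger. The shRTP801 minus shCT difference was 4.56 points in WT and -4.40 points in 5xFAD, and the exact permutation p of their difference was 0.00051, the smallest that 1960 relabellings could give. The limma interaction was -0.97 on the log2 scale with an adjusted p of 0.0191, and 8 of 196 features passed, or 4.08%. By p this share ranked 5 of the 196 in that fit, against 2 over all libraries. The 3 mt-poor libraries thus decided on which side of the threshold this interaction fell. In the same 15 libraries the groups did not overlap in 5xFAD shRTP801 against 5xFAD shCT, WT shRTP801 against WT shCT, or 5xFAD shRTP801 against WT shRTP801, where 10.7%, 11.7% and 10.2% of all features did not overlap either. With shared reads counted once, over all 18 libraries, the difference was -7.24 points with an exact permutation p of 0.00255, and the limma interaction was -0.86 with an adjusted p of 0.332.

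The internal share of Gln-CTG ran the other way in the 15 libraries, where the 2 differences were 15.98 points apart (exact permutation p = 0.00102). The shares of a family sum to a fixed total, so this is not independent of the 5′-end share. Beside the -8.96 points of the 5′-end share, the 3′-end share gave -6.89 points (exact permutation p = 0.0806). Over all 18 libraries the internal share gave 4.37 points and an exact permutation p of 0.800. Without the mt-poor libraries its groups did not overlap in 5xFAD shCT against WT shCT, WT shRTP801 against WT shCT, or 5xFAD shRTP801 against WT shRTP801. In the latter 2 comparisons 11.7% and 10.2% of all features did not overlap either.

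Over all libraries the 5′-end share of Gln-TTG did not follow clearly. It was 6.26%, 25.2%, 8.22%, 7.79% and 7.50% in the WT shCT mice, 21.04%, 13.5%, 7.19% and 8.64% in the WT shRTP801 mice, and 8.92%, 9.05% and 10.05% in the 5xFAD shCT mice. In the 5xFAD shRTP801 mice it ran from 4.92 to 22.1% with a median of 6.595%. The values above 20% were those of the 3 mt-poor libraries. The difference between genotypes of the shRTP801 minus shCT differences was -1.80 points (exact permutation p = 0.767), and -5.13 points without the mt-poor libraries (exact permutation p = 0.0138). Without them the shRTP801 minus shCT difference was 2.34 points in WT and -2.79 points in 5xFAD, the same directions as for Gln-CTG. The 5xFAD shCT mice then lay wholly above the WT shCT mice, at 8.92 to 10.05% against 6.26 to 8.22%.

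**Figure D4:**
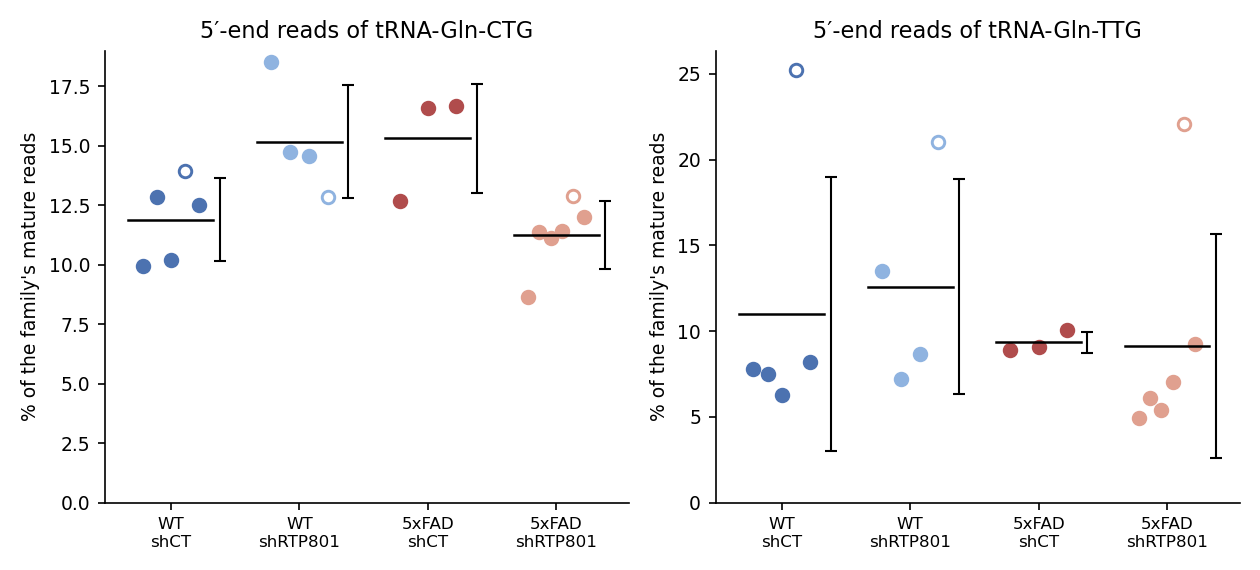
5′-end reads as a percentage of the mature reads of Gln-CTG and Gln-TTG, with a dot for each mouse, a line at the group mean and a bar of 1 SD on either side, and open symbols for the mt-poor libraries. For Gln-CTG the means are 11.9% and 15.2% in WT with shCT and shRTP801 and 15.3% and 11.3% in 5xFAD with shCT and shRTP801, and for Gln-TTG the mt-poor libraries lie at 21.04 to 25.2%, above all other mice.

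Precursors of Gln-CTG were steadier than its mature form, with shares of 0.960 to 2.19% over the 18 mice. Gln-CTG held 1.93%, 1.08%, 1.38%, 2.19% and 1.56% of precursor tRNA reads in WT shCT mice 3, 5, 6, 11 and 15, and 1.36%, 0.9996%, 1.10% and 1.37% in WT shRTP801 mice 4, 10, 17 and 21. It held 0.960%, 1.15% and 1.33% in 5xFAD shCT mice 1, 16 and 18, and 1.10 to 1.78% in the 5xFAD shRTP801 mice. The mt-poor libraries lay within the range of the other 15 here. Counting error was small beside the differences between mice: the 1291 reads of WT shCT mouse 3 gave a 95% Wilson interval of 1.83 to 2.03%, and the 582 reads of 5xFAD shCT mouse 1 gave 0.885 to 1.04%. Such intervals cover counting error only.

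Mean precursor shares of Gln-CTG were 1.63% ± 0.44 with shCT and 1.21% ± 0.19 with shRTP801 in WT (SD, n = 5 and 4), and 1.14% ± 0.18 with shCT and 1.39% ± 0.26 with shRTP801 in 5xFAD (n = 3 and 6). WT shCT had the highest mean and the widest spread. The exact permutation p was 0.143 for 5xFAD shCT against WT shCT, 0.238 for 5xFAD shRTP801 against 5xFAD shCT, 0.111 for WT shRTP801 against WT shCT and 0.257 for 5xFAD shRTP801 against WT shRTP801. In limma over 48 precursor families the log2 differences were -0.48, 0.27, -0.40 and 0.19, the lowest adjusted p was 0.349, and 0% of the families passed in any of the 4 comparisons. An unadjusted p under 0.05 was found for 12.5%, 4.17%, 4.17% and 6.25% of the families, with no glutamine family among them, and neither edgeR nor DESeq2 called any. Without the mt-poor libraries both 5xFAD shCT and WT shRTP801 lay wholly under WT shCT (exact permutation p = 0.0571 each, the smallest possible with 3 against 4 mice), as 8.33% and 20.8% of all precursor families did not overlap in these comparisons. In limma over those libraries, 1 of the 2 glutamine precursor families had an unadjusted p under 0.05 in each of these comparisons. The lowest adjusted p values of the glutamine families were 0.252 and 0.169.

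The hairpin difference in the Gln-CTG precursor share ran opposite ways in the 2 genotypes. It was lower by 0.421 percentage points with shRTP801 in WT and higher by 0.245 points in 5xFAD, a difference of 0.666 points (exact permutation p = 0.0357, unadjusted, of the 12 values tested). Without the mt-poor libraries the difference was 0.909 points (exact permutation p = 0.0112). In limma the interaction was 0.67 ± 0.37 (SE) on the log2 scale with an unadjusted p of 0.0880 and an adjusted p of 0.352, where 0% of the 48 families passed. An unadjusted p under 0.05 in this interaction was found for 20.8% of families, and Gln-CTG was not among them. Without the mt-poor libraries both glutamine precursor families had an unadjusted limma p under 0.05 in the interaction. Neither passed the adjusted threshold there, and the lowest adjusted p was 0.0919.

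Gln-TTG precursors were fewer and more scattered. Their share was 0.802%, 0.410%, 1.36%, 0.581% and 0.775% in the WT shCT mice, 0.445%, 0.494%, 0.500% and 0.723% in the WT shRTP801 mice, and 0.481%, 0.439% and 0.641% in the 5xFAD shCT mice. In 5xFAD shRTP801 mice 2, 7, 8, 12, 14 and 19 it was 0.471%, 0.362%, 1.88%, 1.16%, 1.45% and 0.591%. The highest values were those of 3 5xFAD shRTP801 mice and of WT shCT mouse 6, and the 1171 reads of 5xFAD shRTP801 mouse 8 gave a Wilson interval of 1.77 to 1.98%. Group means were 0.785% ± 0.358, 0.540% ± 0.124, 0.521% ± 0.107 and 0.985% ± 0.608 (SD, n = 5, 4, 3 and 6). The exact permutation p over the 4 comparisons ranged from 0.222 to 0.357. The interaction was 1.13 ± 0.67 (SE) in limma with an adjusted p of 0.354, and 0.709 points with an exact permutation p of 0.102. That value was 0.896 points without the mt-poor libraries, with an exact permutation p of 0.0367, unadjusted.

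**Figure D5:**
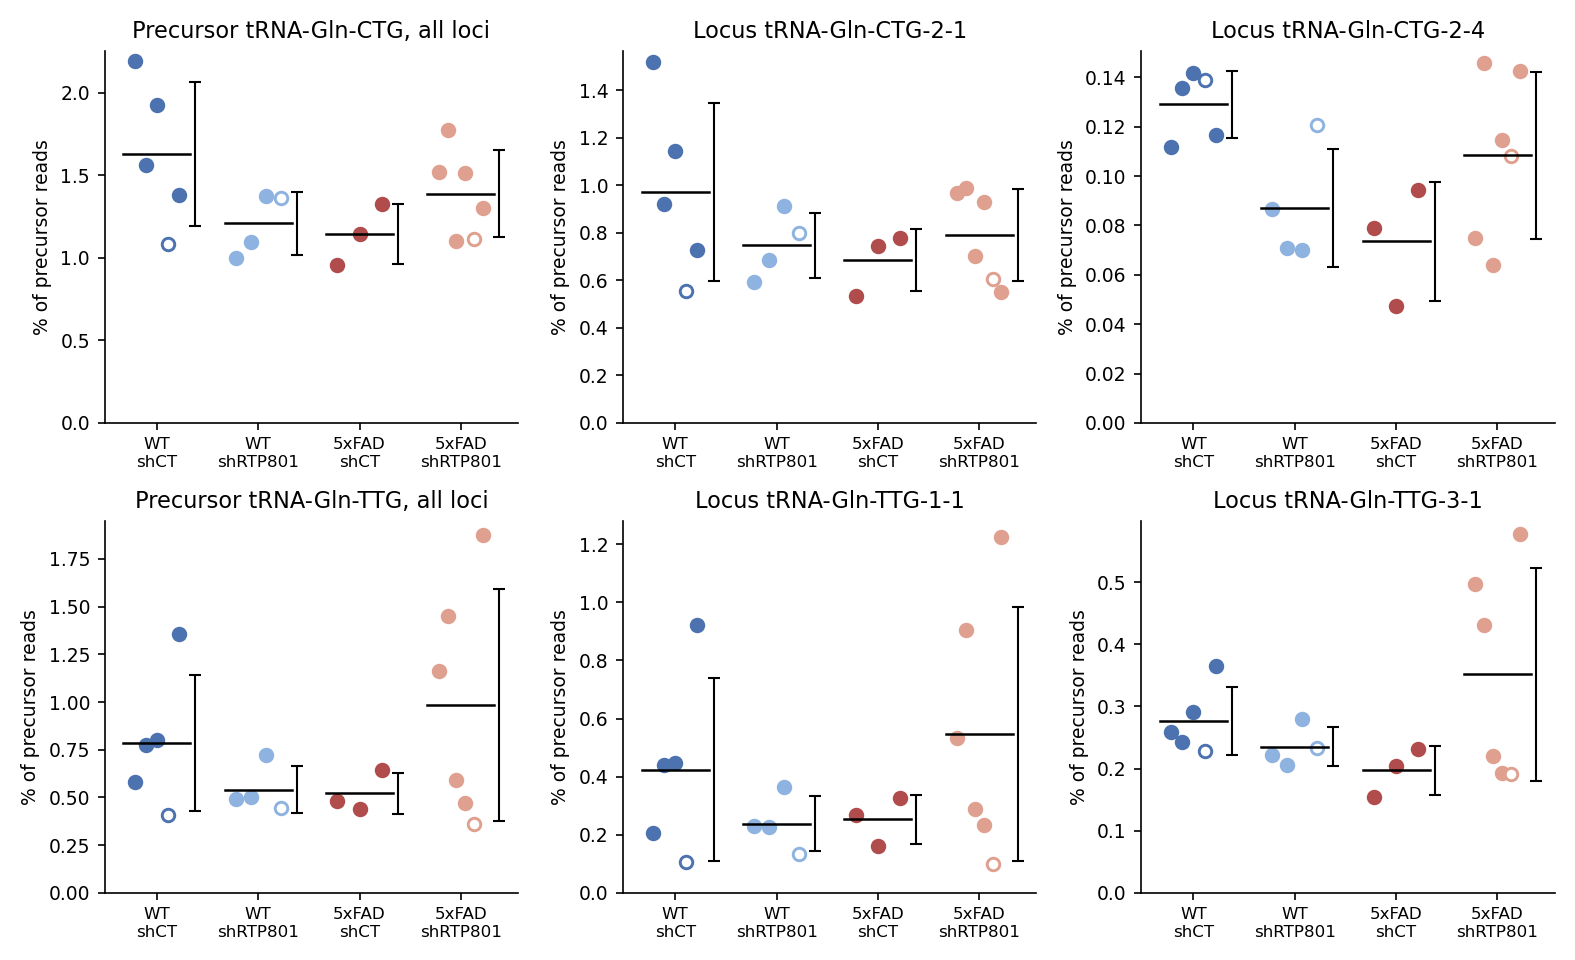
Share of precursor tRNA reads in each mouse for all Gln-CTG loci, Gln-CTG-2-1, Gln-CTG-2-4, all Gln-TTG loci, Gln-TTG-1-1 and Gln-TTG-3-1, with a line at the group mean, a bar of 1 SD on either side and open symbols for the mt-poor libraries. For Gln-CTG-2-4 all 5 WT shCT mice lie at or above 0.112% and all 3 5xFAD shCT mice at or under 0.0943%.

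Precursor reads came mainly from a few gene copies. Gln-CTG-2-1 alone held a mean of 0.814% of precursor reads, followed by Gln-CTG-2-2 with 0.177% and Gln-CTG-2-4 with 0.104%. The remaining 7 Gln-CTG loci had means of 0.00172 to 0.0721%. Gln-CTG-1-1, the precursor locus of the isodecoder Gln-CTG-1, had a precursor mean of 0.00353%. For Gln-TTG the leading loci were Gln-TTG-1-1 with 0.395%, Gln-TTG-3-1 with 0.279% and Gln-TTG-3-2 with 0.0672%, and the other 2 had 0.00670% and 0.00486%.

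Gln-CTG-2-1 was present at 1.14%, 0.556%, 0.729%, 1.52% and 0.921% in the WT shCT mice and at 0.800%, 0.594%, 0.684% and 0.911% in the WT shRTP801 mice. It was 0.534%, 0.744% and 0.778% in the 5xFAD shCT mice and 0.551 to 0.987% in the 5xFAD shRTP801 mice, with a median of 0.816%. Its groups overlapped, and the log2 difference between 5xFAD shCT and WT shCT was -0.44 ± 0.39 (SE; limma adjusted p = 0.556).

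Gln-CTG-2-2 was 0.264%, 0.120%, 0.210%, 0.191% and 0.205% in the WT shCT mice and 0.143%, 0.132%, 0.113% and 0.167% in the WT shRTP801 mice. It was 0.175%, 0.154% and 0.145% in the 5xFAD shCT mice and 0.0960 to 0.303% in the 5xFAD shRTP801 mice, with a median of 0.172%. The highest values, 0.303% each, were those of 5xFAD shRTP801 mice 8 and 14.

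Over all 18 libraries Gln-CTG-2-4 was the only glutamine locus at which the control-hairpin groups did not overlap. It held 0.142%, 0.139%, 0.117%, 0.112% and 0.136% of precursor reads in the WT shCT mice and 0.0791%, 0.0472% and 0.0943% in the 5xFAD shCT mice. It held 0.121%, 0.0866%, 0.0710% and 0.0699% in the WT shRTP801 mice and 0.0638 to 0.146% in the 5xFAD shRTP801 mice, with a median of 0.111%. The 5xFAD shCT and WT shCT groups did not overlap, as was the case for 9.91% of the loci tested, and the exact permutation p was 0.0357, the smallest possible with 3 against 5 mice. The limma log2 difference was -0.85 ± 0.38 (SE) with an adjusted p of 0.313. Between WT shRTP801 and WT shCT the exact permutation p was 0.0476 and the log2 difference -0.59, with a limma adjusted p of 0.682. In the 15 libraries that were not mt-poor, Gln-CTG-2-4, Gln-CTG-2-2 and Gln-TTG-3-1 were each lower in 5xFAD shCT than in WT shCT with no overlap (exact permutation p = 0.0571 each, the smallest possible), as 13.5% of all loci did not overlap. In WT shRTP801 against WT shCT the same held for Gln-CTG-2-4, Gln-CTG-2-2 and Gln-CTG-3-1, where 15.3% of all loci did not overlap.

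Over the 15 glutamine loci, 11 were lower and 4 higher in 5xFAD shCT than in WT shCT, with a median log2 difference of -0.37 against 0.03 over the 333 loci tested. Between WT shRTP801 and WT shCT 12 were lower and 3 higher, with a median of -0.37 against -0.06 over all loci. Between 5xFAD shRTP801 and 5xFAD shCT 11 were higher and 4 lower, with a median of 0.19 against -0.13. Between 5xFAD shRTP801 and WT shRTP801 13 were higher and 2 lower, with a median of 0.26 against -0.03. Each of the 4 comparisons shares a group with others, and precursor reads of gene copies with like flanks can be shared, so the loci are not independent. Gln-CTG-5-1, Gln-CTG-1-1, Gln-TTG-2-1 and Gln-TTG-5-1 had medians of only 0.5, 3, 3 and 3.5 reads per library. Their directions, here and in the interaction below, thus rest on few reads. None of the 15 passed the adjusted threshold in limma, 0% of all loci did, and edgeR and DESeq2 also called none. At an unadjusted p under 0.05, 2 of the 15 passed in 5xFAD shCT against WT shCT, where 15.6% of all loci passed, and 0 of the 15 in the other 3 comparisons, where 7.51%, 10.2% and 2.1% passed. These were Gln-CTG-2-4 and Gln-CTG-3-2, the latter with a log2 difference of -1.19 ± 0.48 (SE) and a limma adjusted p of 0.313, named after its values were seen.

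In the interaction 12 of the 15 loci were positive, with a median of 0.66 against -0.01 over all loci. Again 0% of the loci passed the adjusted threshold, and 3 of the 15 had an unadjusted p under 0.05, against 15.3% of all loci. They were Gln-CTG-2-4 at 1.14 ± 0.51 (SE), Gln-CTG-3-2 at 1.36 ± 0.64 and Gln-CTG-3-3 at 1.72 ± 0.64, with limma adjusted p values of 0.309, 0.318 and 0.241, the latter 2 named after their values were seen. Without the mt-poor libraries 4 of the 15 had an unadjusted limma p under 0.05, none passed the adjusted threshold, and the lowest adjusted p was 0.105.

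Among the Gln-TTG loci, Gln-TTG-1-1 gave the family its scatter. It was 0.446%, 0.107%, 0.921%, 0.204% and 0.439% in the WT shCT mice, 0.133%, 0.230%, 0.227% and 0.364% in the WT shRTP801 mice, and 0.269%, 0.161% and 0.328% in the 5xFAD shCT mice. In the 5xFAD shRTP801 mice it ran from 0.0979 to 1.23% with a median of 0.411%, so that the highest mouse had 12.5 times the level of the lowest, which was mt-poor. Gln-TTG-3-1 varied less. It was 0.291%, 0.228%, 0.365%, 0.259% and 0.242% in the WT shCT mice, 0.234%, 0.222%, 0.206% and 0.2795% in the WT shRTP801 mice, 0.155%, 0.205% and 0.232% in the 5xFAD shCT mice, and 0.191 to 0.578% with a median of 0.326% in the 5xFAD shRTP801 mice. Gln-TTG-3-2 was lower, at 0.0493%, 0.0670%, 0.0620%, 0.0941% and 0.0836% in the WT shCT mice, 0.0701%, 0.0315%, 0.0618% and 0.0605% in the WT shRTP801 mice, 0.0396%, 0.0649% and 0.0668% in the 5xFAD shCT mice, and 0.0387 to 0.116% with a median of 0.0713% in the 5xFAD shRTP801 mice. The log2 differences of Gln-TTG-1-1 and Gln-TTG-3-1 between 5xFAD shRTP801 and 5xFAD shCT were 0.71 ± 0.72 and 0.70 ± 0.41 (SE), with limma adjusted p values of 0.795 and 0.611.

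The balance between the 2 anticodons was next set beside the comparable pairs of lysine and glutamate. Mature Gln-CTG exceeded Gln-TTG in every library, by 18.8, 2.10, 9.25, 10.51 and 11.8 times in the WT shCT mice and by 3.79, 15.99, 9.13 and 8.04 times in the WT shRTP801 mice. The ratio was 15.4, 11.4 and 6.36 in the 5xFAD shCT mice and 2.74 to 16.9 in the 5xFAD shRTP801 mice, with a median of 9.65. The mt-poor libraries gave the 3 lowest ratios, and this was not particular to glutamine. They were also lowest for Lys-CTT over Lys-TTT, at 5.04 to 7.32 against at least 8.15 elsewhere. The same held for Glu-CTC over Glu-TTC, at 0.263 to 0.363 against at least 0.528. The mature ratio of Lys-CTT to Lys-TTT ran from 5.04 to 16.1 and that of Glu-CTC to Glu-TTC from 0.263 to 0.821. With shared reads counted once, Glu-CTC over Glu-TTC was 0.491 to 0.807 in the mt-poor libraries and 1.08 to 2.01 in all others. The direction of that ratio thus depended on how shared reads were counted. Counted once, Gln-CTG over Gln-TTG ran from 2.93 to 17.7 and Lys-CTT over Lys-TTT from 4.83 to 13.1. Since reads are listed at several isodecoders, and the anticodons may differ in how they hydrolyse and are reverse transcribed, these ratios compare reads and not molecules.

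In precursors the Gln-CTG to Gln-TTG ratio was lower than in mature reads, except in the mt-poor libraries of WT shCT mouse 5 (2.65 against 2.10) and 5xFAD shRTP801 mouse 7 (3.08 against 2.74). It was 2.40, 2.65, 1.02, 3.78 and 2.02 in the WT shCT mice, 3.06, 2.02, 2.19 and 1.90 in the WT shRTP801 mice, 1.99, 2.61 and 2.07 in the 5xFAD shCT mice and 0.695 to 3.22 in the 5xFAD shRTP801 mice. In 5xFAD shRTP801 mouse 8 Gln-TTG precursors outnumbered those of Gln-CTG. The 4 comparisons gave log2 differences of 0.28, -0.27, -0.06 and 0.07 for the mature ratio and 0.02, -0.41, 0.05 and -0.44 for the precursor ratio, and no pair of families passed the adjusted threshold in limma (0% of 26). An unadjusted p under 0.05 was found for 3.85%, 7.69%, 0% and 0% of the 26, with neither glutamine ratio among them.

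Precursor reads were scarce relative to mature reads, except in the mt-poor libraries. In the other 15 libraries there were 0.389 to 5.06 precursor reads of Gln-CTG per 1000 mature reads of Gln-CTG, and 1.69 to 14.1 of Gln-TTG per 1000 of Gln-TTG. The mt-poor libraries of WT shCT mouse 5, WT shRTP801 mouse 4 and 5xFAD shRTP801 mouse 7 had 50.3, 30.7 and 57.6 for Gln-CTG, and 40.0, 37.9 and 51.3 for Gln-TTG. Over all tRNAs the same measure was 11.7, 10.1 and 17.2 in those libraries and 3.55 to 7.62 in the others. In the same libraries the precursor share of Gln-CTG lay among those of the other mice and that of Gln-TTG at the low end, at 0.410%, 0.445% and 0.362%. No group comparison of this ratio passed in limma for either family, and 0% of families passed. An unadjusted p under 0.05 was found for 8.33%, 6.25%, 6.25% and 0% of families, again without a glutamine family.

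By likeness of log2 share over the 18 libraries, the mature family closest to Gln-CTG was Gln-TTG, with a Pearson correlation of 0.91, followed by Gly-TCC with 0.90 and Gly-GCC with 0.88. For Gln-TTG the closest after Gln-CTG were Gly-TCC with 0.85 and Cys-GCA with 0.73. The mt-poor libraries lay under all other libraries in both glutamine families. Over the other 15 libraries the correlation between both glutamine families was 0.71, still the highest of all families for each, whereas the glycine and cysteine families gave 0.22 to 0.42. The points share library, depth and the total of 100% to which all families sum, so these correlations are a description.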

How the data were processed

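Small RNA of 60 to 100 nucleotides from the hippocampi of 18 mice was hydrolysed and sequenced by the authors as paired-end reads of 50 bases. The paper describes the mapped reads as merged. They used tRAX, which writes mature reads as whole, 5′-end, 3′-end or other (internal) reads and lists a read at every tRNA it fits equally well. Per the labels the genome build was mm39. The deposited values are tRAX normalized counts (unit signal), that is counts divided by a size factor per library. Dividing each library by its smallest value above 0 gave whole reads for 100% of values, to within 1e-06 reads.

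From these values, shares of all mature or all precursor tRNA reads were computed per family, isodecoder and locus, as were read types as a percent of the family. The 4 groups were fitted together with limma 3.58.1 (R 4.3.3) on log2(percent + 0.001), or + 0.1 for read types and + 0.0001 for precursor over mature. Features with a mean of at least 0.001% were kept, and p was adjusted by Benjamini-Hochberg over all features of a class. The threshold was 0.05. Differences on this scale understate the change of low features. For single values, group means were permuted exactly, two-sided and unadjusted (scipy 1.17.1). edgeR 4.0.16 and DESeq2 1.42.0 were run on the recovered reads as alternatives. The scripts were tested on simulated data.

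Isodecoders with a mean of at least 0.05% of mature reads and the 3 leading precursor loci per anticodon were given per mouse. The members and lists were chosen with earlier results of these data known. Each sample is another mouse, but p-values measure only the spread between these mice. The 10 glutamine rows for antisense reads held 0 reads and were left out. RefSeq names 10 Gln-CTG and 6 Gln-TTG genes. tRNA sequences and coordinates were not analysed here.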

Additional observations from a re-analysis of the deposited data

Results flagged for a closer look

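Of 48 groups of 4 to 6 mice examined over the glutamine read types, shares and precursor ratios, 20 held a mouse far from the rest of its group, and all 20 were mt-poor libraries. Chance flags about 1 in 20 groups, but these values come from the same 3 mice and the shares of a family sum to 100%, so they are not independent and that rate is no test of them. In WT shCT mouse 5, WT shRTP801 mouse 4 and 5xFAD shRTP801 mouse 7, internal reads of Gln-CTG were low at 31.2%, 53.0% and 40.8%, 3′-end reads high at 53.8%, 32.4% and 44.7%, and whole reads high at 1.09%, 1.74% and 1.55%. 5′-end reads of Gln-TTG were high at 25.2% in WT shCT mouse 5 and 22.1% in 5xFAD shRTP801 mouse 7. Internal reads of Gln-TTG were low at 28.2% in WT shCT mouse 5 and 34.5% in WT shRTP801 mouse 4, and whole reads of Gln-TTG high at 2.53% in 5xFAD shRTP801 mouse 7. Precursor reads per 1000 mature reads stood out at 50.3, 30.7 and 57.6 for Gln-CTG and at 40.0, 37.9 and 51.3 for Gln-TTG.

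The shRTP801 hairpin went with opposite differences in the 2 genotypes for the 5′-end share of Gln-CTG, -7.35 percentage points apart (exact permutation p = 0.000567). The same held for its precursor share, 0.666 percentage points apart (exact permutation p = 0.0357). Both p values come from relabelling hairpins within each genotype. Neither share passed the adjusted threshold of the limma interaction over all families.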

How the results depend on the processing

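No paired analysis was possible because the labels' numbers are mouse numbers and no number occurs in 2 groups. Of 1031 alternative values over 39 results on the glutamine families, 964 kept their direction and side of the threshold, 66 changed sign and 1 passed the threshold. No precursor share of a glutamine family and no 5′-end share of Gln-CTG changed sign, and the 5′-end interaction of Gln-CTG ran from -0.97 to -0.69 with limma adjusted p values of 0.0191 to 0.536. It passed at -0.97 without the mt-poor libraries. Values below are log2 differences unless given as counts. The comparisons are A, 5xFAD shCT against WT shCT, B, 5xFAD shRTP801 against 5xFAD shCT, C, WT shRTP801 against WT shCT, and D, 5xFAD shRTP801 against WT shRTP801.

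Leaving out the mt-poor libraries, an alternative chosen after seeing the data, turned the mature Gln-CTG share to -0.12 in A, 0.53 in B and 0.013 in C, precursor over mature to -0.24 for Gln-CTG in B and 0.011 for Gln-TTG in D, the mature Gln-CTG to Gln-TTG ratio to -0.22 in A and 0.057 in B, and the precursor ratio to -0.029 in C. It gave 3 read types past the threshold in B and 8 in the interaction, in place of 0. For mature Gln-CTG in B, deposited counts and edgeR each gave 0.32 and DESeq2 0.28. Counting shared reads once, also chosen after seeing the data, gave 0.0064 for mature Gln-CTG in C and -0.10 for mature Gln-TTG in B. Mature Gln-TTG was -0.24 in A with deposited counts, and in C it was -0.42 with deposited counts, -0.020 with centring, -0.029 with edgeR and -0.051 with DESeq2. Deposited counts shifted the median of all mature families to -0.542 in A and -0.417 in C, from 0.228 and 0.0498. DESeq2 called 1 mature family and 1 mature isodecoder in C, in place of 0, neither of glutamine.

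Leaving out each mouse in turn gave mature Gln-CTG -0.12 to 1.34 in A, -0.77 to 0.53 in B, -0.94 to 0.94 in C and -0.37 to 1.35 in D. Mature Gln-TTG ran from -0.23 to 0.47 in B, -0.37 to 0.63 in C and -0.074 to 0.95 in D. Precursor over mature ran from -0.24 to 1.64 in B, -1.23 to 1.02 in C and -1.68 to 0.53 in D for Gln-CTG, and from -0.83 to 0.33 in C and -0.66 to 0.53 in D for Gln-TTG. The mature ratio ran from -0.22 to 0.63 in A, -0.63 to 0.057 in B, -0.57 to 0.31 in C and -0.30 to 0.40 in D, and the precursor ratio from -0.26 to 0.22 in A and -0.23 to 0.25 in C. Counts past the threshold ran from 0 to 2 for precursor families in A and 0 to 1 for loci in A and C, all without WT shCT mouse 15. For loci in the interaction they ran from 0 to 8, and 2 of the 18 fits gave calls. They ran from 0 to 1 for read types in D and the interaction without WT shRTP801 mouse 4. For ratios in B they ran from 0 to 1 without 5xFAD shCT mouse 18. No glutamine member was among the features called in these fits. The cause was not tested. Precursor depth, down to 223 reads of Gln-TTG in a library, limits the lower loci.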
